A study of Homo sapiens with 12 samples.

Results

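The heat shock proteins and J-domain cochaperones of JJN3, a human multiple myeloma cell line, were followed across 4 groups of samples. Members were the gene symbols of the HSPA, HSPB, HSPD, HSPE, HSPH, HSP90A, DNAJA, DNAJB and DNAJC families together with HSF1 and HSF2. HSPA5, DNAJB9, DNAJB11 and DNAJC3, which belong to the unfolded protein response of the endoplasmic reticulum (ER), were left out. The rule used names only and found 135 of 59276 symbols. Of these, 71 were counted as parent genes by their names and 64 were symbols of pseudogenes. Among the 71, DNAJB3 and HSPA7 are themselves annotated as pseudogenes, and the other 69 as protein-coding.

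Every group held JJN3 cells, with 3 samples each, and RNA-seq values were log2(TPM+1), where TPM is a transcript level per length, scaled to the same total in each sample. Wildtype cells were treated for 3 days with DMSO, the solvent, or with MS023 at 10 µM, an inhibitor of type I protein arginine methyltransferases (PRMTs). In the other 2 groups the cells expressed Cas9, had been sorted for mCherry and selected with puromycin for an inducible guide RNA, and received doxycycline for 3 days. The guide was a control (isgCtrl) or targeted PRMT1 (iPRMT1, called PRMT1-KO here). The RNA-seq thus covers 1 cell line and 1 guide against PRMT1. The study's methods state in general that experiments were repeated independently, but the labels do not say whether the samples of a group came from separate cultures, so that the p-values measure the spread between these samples, which may be technical.

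Heat shock proteins hold unfolded proteins and help them fold. HSP70 proteins bind short stretches of a client and release them in a cycle driven by ATP, J-domain proteins of the DNAJ families hand over the client and start ATP hydrolysis, and HSP110 proteins exchange the nucleotide. HSP90 acts later on kinases, receptors and other clients, the chaperonin HSP60 with its lid HSP10 folds proteins inside mitochondria, and small heat shock proteins hold aggregating proteins. HSF1 drives many of these genes under stress by binding heat shock elements in their promoters, and myeloma cells, which make large amounts of secreted antibody chains, are known to depend on protein folding and degradation.

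Promoter stretches that carry a heat shock element are shown here because the comparisons below set members with and without such an element side by side. RefSeq promoters of GRCh38.p14, from 250 bases before to 50 bases after a gene's start, were at hand for 61 of the 71 parent genes. An element of 2 units was read as GAANNTTC or TTCNNGAA and one of 3 units as GAANNTTCNNGAA or TTCNNGAANNTTC, where N is any base. Each motif reads the same or as its partner on the other strand, and a 3-unit match always contains 2-unit matches. Printed stretches are 40 bases long, run 5′ to 3′ on the gene's strand, and show the element in capitals.
HSPA8, chr11:123062166-123062205, minus strand, 3 units: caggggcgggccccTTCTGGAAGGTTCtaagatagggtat
HSPA6, chr1:161524452-161524491, plus strand, 3 units: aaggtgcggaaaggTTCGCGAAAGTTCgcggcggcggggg
DNAJB6, chr7:157336859-157336898, plus strand, 3 units: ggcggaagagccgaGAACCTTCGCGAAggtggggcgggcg
HSPB1, chr7:76302475-76302514, plus strand, 2 units: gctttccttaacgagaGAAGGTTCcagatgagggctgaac
HSPA1B, chr6:31827617-31827656, plus strand, 2 units: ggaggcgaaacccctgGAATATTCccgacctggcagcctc

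The 2-unit motif was in 14 of the 61 member promoters (23.0%) and in 13.7% of 27305 RefSeq promoters of the same length. The windows of HSPA1A and HSPA1L overlap on opposite strands, and their matches are the same bases, counted for both genes. The 3-unit motif was in 4 member promoters (6.56%), those of DNAJA1, DNAJB6, HSPA6 and HSPA8, and in 0.487% of all. HSPA8 held 2 of them, which began 230 and 55 bases before its start. In DNAJB6 the 3-unit motif began 131 bases before the start and in HSPA6 it began 74 bases before it. A match describes the letters of a promoter and does not show that HSF1 binds there.

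The cells carried most markers of a plasma cell line. SDC1, TNFRSF17, IRF4, PRDM1, XBP1 and JCHAIN were above 4 on the log2(TPM+1) scale in all samples, whereas CD38, SLAMF7 and MZB1 were not. MZB1 read 6.70 to 7.51 in the DMSO and MS023 samples but 0.42 to 1.77 in the isgCtrl and PRMT1-KO samples. SLAMF7 split the same way, at 3.28 to 5.80 and 0.20 to 0.73. CD38 was below 2 in all samples but those with DMSO. JCHAIN, which made up most of the marker RNA, was at 4707 to 4937 TPM with DMSO, 10390 to 10743 with MS023, 1947 to 2009 for isgCtrl and 2176 to 2361 for PRMT1-KO. The markers did not move as one with MS023, since CD38 read 2.50 to 2.68 with DMSO and 1.61 to 1.76 with MS023 while TNFRSF17 overlapped. Summed over the 9 plasma cell and myeloma markers, TPM ranged from 5423 to 5667 with DMSO and from 11542 to 11912 with MS023. The range was 2600 to 2664 for isgCtrl samples and 2806 to 2989 for PRMT1-KO samples, and their part in the results below was not tested. Of 3 T cell markers all stayed at or below 1, and myeloid, stromal, erythroid and epithelial lists of 3 genes each gave sums of up to 3.00, 11.2, 19.3 and 93.3 TPM. The epithelial sum came with EPCAM and was 89.8 to 93.3 with DMSO and 59.3 to 64.5 with MS023. PRMT1 itself fell in PRMT1-KO cells from 849–867 to 301–309 TPM (log2 fold change −1.497, adjusted p = 7.2e-04) and stood at 634–670 TPM with DMSO and 656–700 TPM with MS023. Correlations of log2(TPM+1) between samples of the same group were 0.993 to 0.996 over all genes, and no sample stood apart.

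Most of the chaperone RNA came from a few genes. Per-length levels placed 12 of the 71 parent genes at a mean of at least 100 TPM over the 12 samples, 24 at 10 to 100, 12 at 1 to 10 and 23 under 1. HSPA8, the constitutive cytosolic HSP70, was highest at 1422 TPM and ranked 131 among all symbols. HSPE1 (HSP10) at 1089 TPM and HSP90AB1 at 1080 came next and changed places between groups. HSPE1 was the higher one with DMSO (1294 against 975 TPM), and HSP90AB1 was higher with MS023 (987 against 912), in isgCtrl (1206 against 1116) and in PRMT1-KO (1154 against 1033). HSP90AA1 was at 568 and HSPD1 (HSP60) at 518 TPM. These 5 genes and HSPA9, the mitochondrial HSP70 at 247 TPM, were followed by the J-domain genes DNAJA1 at 168 and DNAJB6 at 160, of which DNAJB6 was the higher one in isgCtrl (211 against 170 TPM) and PRMT1-KO (190 against 169). In the plot of levels by sample the genes from HSPA8 to HSPA9 were at the top in all 4 groups.

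**Figure D1:**
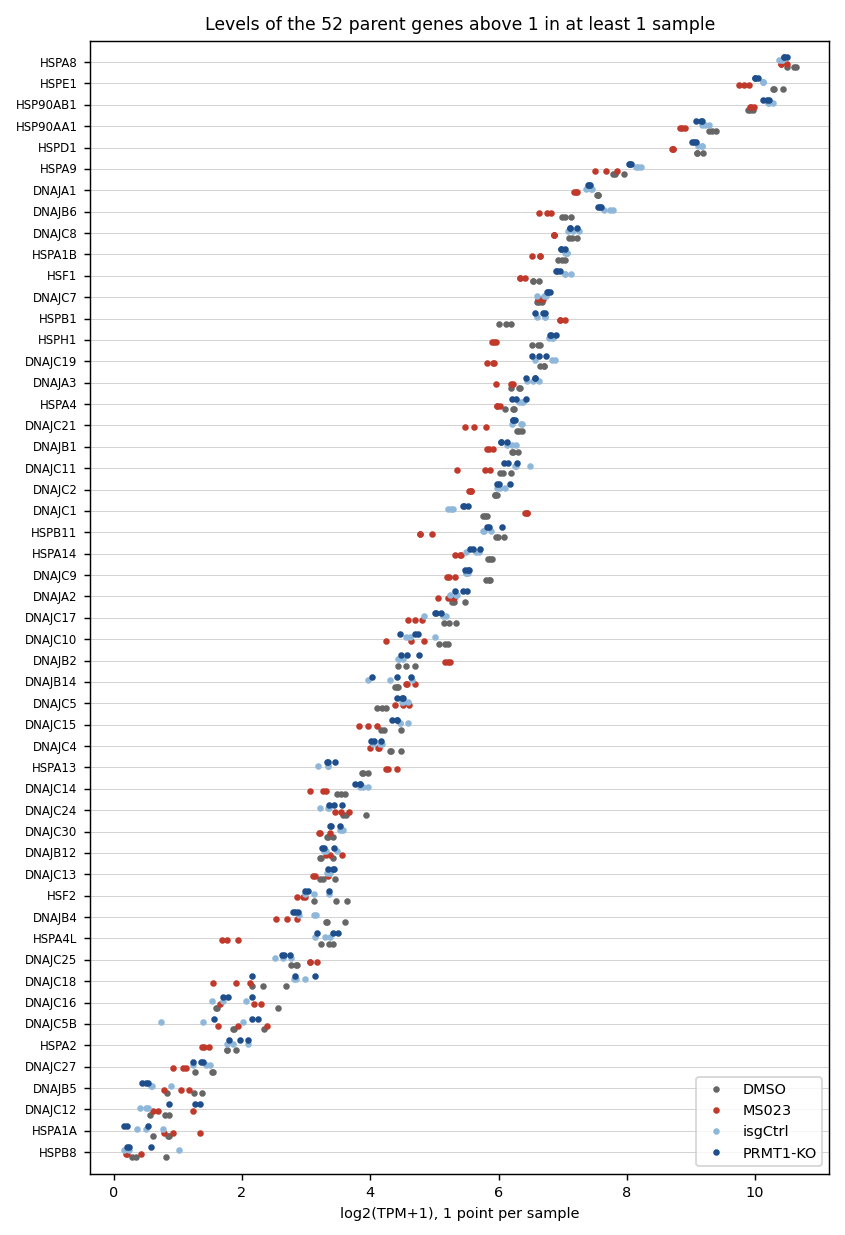
Levels of the 52 parent genes that exceeded 1 in at least 1 sample, with log2(TPM+1) on the horizontal axis and 1 point for each of the 12 samples, coloured by group. HSPA8 is at the top at 10.4 to 10.6, and the MS023 points of HSPA4L, HSPB11 and DNAJC19 lie apart to the left while those of HSPB1 and DNAJC1 lie to the right of the DMSO points.

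The most strictly stress-induced member was near the floor. HSPA6, an HSP70 made almost only after heat shock or proteotoxic stress, was at 0.162 to 0.489 TPM over the 12 samples. Other low members included HSPA1L at 0.0540 to 0.363 TPM and DNAJA4 at 0.131 to 0.497 TPM. HSPA6, HSPA1L and DNAJA4 were picked out after their values were seen, and the sole parent gene at 0 in all samples was DNAJB8. In all, 19 parent genes stayed at or below 1 on the log2 scale in every sample. Of the pseudogene symbols 34 were at 0 throughout, 1 (HSPB1P1) exceeded 1 in any sample, and together they held 0.9 to 3.6 TPM of a sample. None was tested.

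HSPA1A and HSPA1B, the stress-inducible HSP70 pair, lie next to each other on chromosome 6 (31815543 to 31817946 and 31827738 to 31830254) and code for nearly the same sequence, so that the split of reads between them is uncertain. HSPA1B was listed at 6.52 to 7.07 and HSPA1A at 0.15 to 1.34 on the log2 scale. Their sum was 121 to 131 TPM with DMSO, 91.8 to 101 with MS023, 131 to 134 for isgCtrl and 124 to 131 for PRMT1-KO. The sum was thus lower in each MS023 sample than in any other sample. HSPA8, HSPD1 and HSPE1 also have processed pseudogenes that can take or give reads, and HSPE1 shares exons with the readthrough symbol HSPE1-MOB4, which was at 1.92 to 3.36.

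With MS023, parts of the chaperone network were lower and a small set was higher. The largest falls were in HSPA4L and HSPB11, followed by the J-domain genes DNAJC19, DNAJB4 and DNAJC21, and the 3 genes that rose were HSPB1 (HSP27) and the J-domain genes DNAJC1 and DNAJB2. A gene was called at a Benjamini-Hochberg adjusted p under 0.05 with an absolute log2 fold change above 0.48 in limma, and it was tested where its mean log2(TPM+1) exceeded 1 in either group. Of the 71 parent genes 50 were tested and 14 were called (28.0%), beside 30.9% of the 12903 genes tested. The higher calls were 3 (6.0%, beside 11.6% of all genes) and the lower calls 11 (22%, beside 19.3%). The shares of members called were thus near those of all genes in either direction, and the share of higher calls was the smaller one beside its background.

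Small differences were more common among the members at the deposited scaling. The shares with a small adjusted p were not counted under other scalings, and the part of expression level in them was not tested. Without a fold threshold 32 of 50 members (64.0%) had an adjusted p under 0.05, 6 higher and 26 lower, beside 48.8% of all genes. The 3 samples of MS023 did not overlap those of DMSO for 36 members (72.0%; 29 lower and 7 higher), beside 59.5% of all genes. The median log2 fold change was −0.30 for the 50 members and −0.11 for all genes tested, and 38 members (76.0%) and 59.1% of all genes were below 0. With median-ratio scaling the median of all genes was −0.02, and the split of the member calls was 4 higher and 7 lower in place of 3 and 11. With quantile normalization it was 4 and 8.

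**Figure D2:**
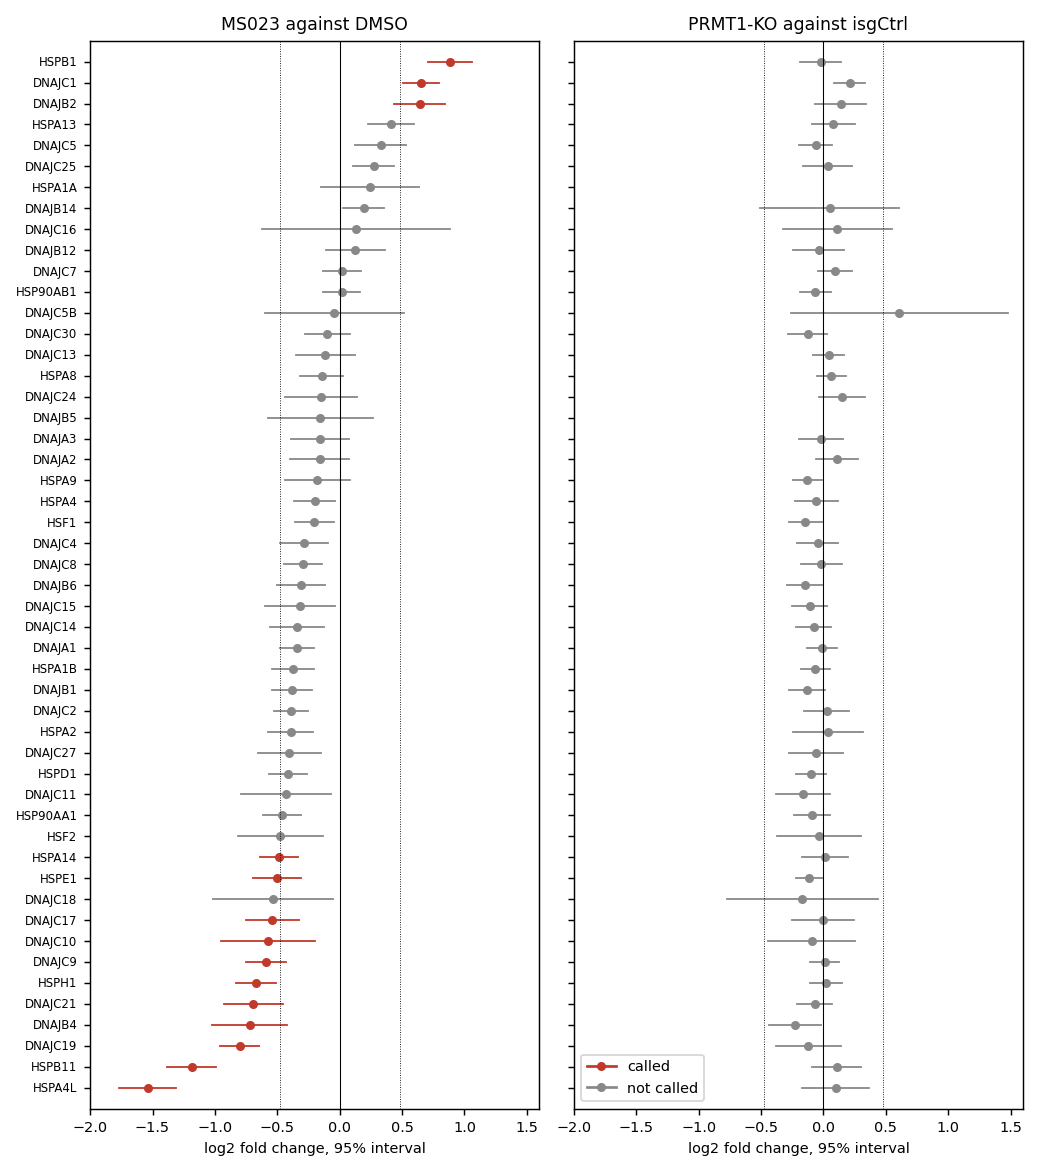
Log2 fold changes (horizontal axis) of the 50 members tested with MS023, ordered by value, with 95% confidence intervals from limma, for MS023 against DMSO on the left and PRMT1-KO against isgCtrl on the right, where HSPA1A and DNAJB5 were not tested. Red marks called members, and dotted lines stand at −0.48 and 0.48. There are 14 red members on the left, from HSPA4L at −1.54 to HSPB1 at 0.88, and none on the right.

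Of the 3 HSP110 proteins, the nucleotide exchange factors of HSP70, 2 were called lower, beside 19.3% of all genes tested. HSPA4L (chromosome 4, 127781821 to 127840733) read 3.23, 3.42 and 3.36 with DMSO and 1.94, 1.77 and 1.69 with MS023. All 3 MS023 samples were thus far below all others, since the isgCtrl samples read 3.29, 3.14 and 3.37 and the PRMT1-KO samples 3.42, 3.16 and 3.50. HSPA4L fell by 1.54 on the log2 scale (SE 0.094, adjusted p = 1.4e-04), to 27.3% of its TPM with DMSO.

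HSPH1 (HSP105), the more abundant HSP110, read 6.65, 6.53 and 6.61 with DMSO and 5.89, 5.92 and 5.97 with MS023. Its groups did not overlap either, and it fell by 0.67 (SE 0.064, adjusted p = 5.8e-04). HSPA4, the third member, was at 6.20 ± 0.08 with DMSO and 5.99 ± 0.03 with MS023 (SD, n = 3), a difference of −0.20 that did not reach the fold threshold (adjusted p = 0.0496). The summed TPM of the 3 genes was 169 to 183 with DMSO, 123 to 128 with MS023, 197 to 206 for isgCtrl and 193 to 214 for PRMT1-KO.

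Among the HSP70 proteins 1 of 7 tested was called, beside 30.9% of all genes tested. HSPA14, which works at the ribosome together with the J-domain protein DNAJC2, read 5.87, 5.83 and 5.90 with DMSO and 5.32, 5.42 and 5.40 with MS023 (log2 fold change −0.49, adjusted p = 0.0016). It lies just past the fold threshold and came to −0.47 without DMSO replicate 3, to −0.46 without MS023 replicate 1, to −0.39 with median-ratio scaling and to −0.40 with quantile normalization.

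The abundant HSP70 genes were closer to their controls. HSPA8 was at 10.58 ± 0.07 with DMSO and 10.44 ± 0.05 with MS023 (log2 fold change −0.15, 95% interval −0.32 to 0.03, adjusted p = 0.13). HSPA9 gave −0.18 (−0.44 to 0.09, adjusted p = 0.22), and its groups overlapped. HSPA1B was lower in all 3 MS023 samples, with a log2 fold change of −0.37 (adjusted p = 0.0064), while HSPA1A gave 0.24 (adjusted p = 0.26), both with the uncertainty named above. HSPA13 (STCH), an HSP70 of the ER, went the other way: it read 3.88, 3.96 and 3.87 with DMSO and 4.28, 4.24 and 4.42 with MS023, a difference of 0.41 (adjusted p = 0.0057) that passed the fold threshold only after median-ratio scaling (0.51) or quantile normalization (0.56).

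Neither gene of the HSP90 pair was called. HSP90AA1, the inducible form, read 9.39, 9.29 and 9.33 with DMSO and 8.83, 8.87 and 8.91 with MS023, without overlap. Its log2 fold change of −0.46 (SE 0.062, adjusted p = 0.0019) was within the fold threshold, which it passed without DMSO replicate 2 (−0.49) or MS023 replicate 3 (−0.48). HSP90AB1, the constitutive form, was at 9.93 ± 0.04 and 9.95 ± 0.03 (log2 fold change 0.02, 95% interval −0.13 to 0.17, adjusted p = 0.82), and its sign turned with quantile normalization (−0.10). The summed TPM of both was 1569 to 1673 with DMSO and 1425 to 1494 with MS023.

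For both parts of the mitochondrial chaperonin all 3 MS023 samples were below all DMSO samples, and 1 part was called. Over all genes tested the groups did not overlap for 59.5%, and 30.9% were called. HSPE1, the lid, read 10.29, 10.44 and 10.28 with DMSO and 9.91, 9.83 and 9.76 with MS023 (log2 fold change −0.50, adjusted p = 0.0033). The call lies at the threshold: it was −0.45 without DMSO replicate 2, −0.47 without MS023 replicate 3 and −0.40 with median-ratio scaling, but −0.62 with quantile normalization. HSPD1, the barrel, read 9.20, 9.09 and 9.10 with DMSO and 8.71, 8.72 and 8.72 with MS023 (−0.41, adjusted p = 0.0029) and was not called. Together they held 1786 to 1936 TPM with DMSO and 1284 to 1377 TPM with MS023, without overlap.

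Small heat shock proteins gave the strongest rise and the second largest fall of all members. HSPB1 (HSP27; chromosome 7, 76302673 to 76304295) read 6.0, 6.19 and 6.11 with DMSO and 6.96, 7.04 and 6.96 with MS023. Each MS023 sample was above each of the other 9 samples. HSPB1 rose by 0.88 (SE 0.074, adjusted p = 3.6e-04), to 1.86 times its TPM with DMSO.

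HSPB11 (chromosome 1, 53916574 to 53945699), now named IFT25, carries the family name but is a subunit of the intraflagellar transport complex of cilia. It read 5.96, 6.09 and 6.0 with DMSO and 4.77, 4.96 and 4.77 with MS023. The groups were far apart, with a fall of 1.19 (SE 0.080, adjusted p = 1.9e-04) to 43.1% of the TPM with DMSO. The other 6 small heat shock genes were not tested, since their means did not exceed 1.

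**Figure D3:**
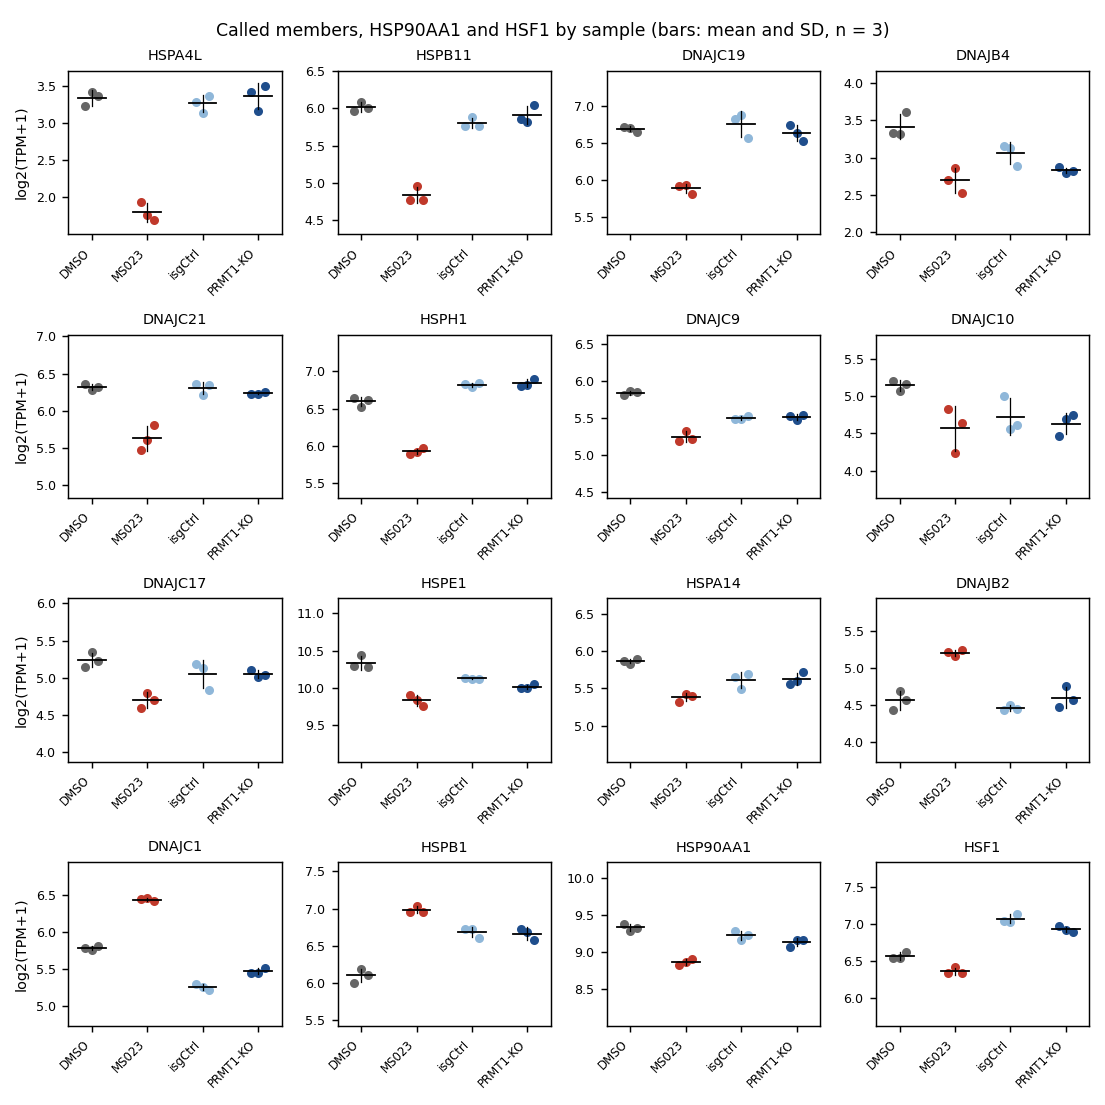
Log2(TPM+1) (vertical axis, a span of 2.2 in each panel) of the 14 members called with MS023, of HSP90AA1 and of HSF1, in each of the 3 samples of the 4 groups, with bars for mean and SD. The MS023 points lie apart from the DMSO points in all 16 panels, and isgCtrl and PRMT1-KO points lie near each other.

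J-domain proteins made up 8 of the 14 calls, and they were also most of the 50 members tested (3 DNAJA, 7 DNAJB and 22 DNAJC genes). Over all genes tested 30.9% were called. None of 3 DNAJA genes tested was called. DNAJA1, the most abundant, read 7.55, 7.54 and 7.55 with DMSO and 7.17, 7.22 and 7.21 with MS023 (log2 fold change −0.34, adjusted p = 0.0040). DNAJA1 thus differed by more than its replicates did but stayed within the fold threshold. DNAJA2 gave −0.16 (95% interval −0.40 to 0.07, adjusted p = 0.21), and its groups overlapped.

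Of 7 DNAJB genes tested 1 rose and 1 fell, beside 11.6% of all genes called higher and 19.3% called lower. DNAJB2 (HSJ1), which binds ubiquitylated clients and passes them to the proteasome, read 4.43, 4.69 and 4.56 with DMSO and 5.21, 5.16 and 5.24 with MS023, a rise of 0.64 (SE 0.084, adjusted p = 0.0018). DNAJB4, a relative of DNAJB1 in the cytosol, read 3.33, 3.31 and 3.61 with DMSO and 2.70, 2.86 and 2.53 with MS023, a fall of 0.72 (SE 0.12, adjusted p = 0.0047). The groups of both genes were apart. DNAJB1, the canonical stress-inducible partner of HSP70, gave −0.38 (adjusted p = 0.0045) and DNAJB6, which suppresses aggregation, −0.31 (adjusted p = 0.019), neither called.

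The DNAJC family gave 5 falls and 1 rise among 22 genes tested, beside 19.3% of all genes called lower and 11.6% higher. DNAJC19, a protein of the inner mitochondrial membrane, read 6.71, 6.71 and 6.65 with DMSO and 5.92, 5.93 and 5.82 with MS023. No sample of the other groups came near the MS023 samples, the lowest being 6.53 in PRMT1-KO cells, and the fall was 0.80 (SE 0.064, adjusted p = 3.1e-04).

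Of the 7 members of ribosome, nucleus and RNA 4 fell (57.1%, beside 19.3% of all genes called lower, in a grouping made with these results known), HSPA14 described above and 3 J-domain proteins. Of these 4 HSPA14 and DNAJC17 lost the call under both scalings. DNAJC21, which takes part in the maturation of the large ribosomal subunit, read 6.36, 6.28 and 6.32 with DMSO and 5.47, 5.61 and 5.81 with MS023 and fell by 0.69 (adjusted p = 0.0023). DNAJC9, which recruits HSP70 to histones H3 and H4, fell by 0.59, from 5.84 ± 0.03 to 5.25 ± 0.07 (adjusted p = 9.5e-04), and the antisense symbol DNAJC9-AS1 beside it ranged from 1.46 to 1.88 with DMSO and from 0.59 to 0.94 with MS023. DNAJC17, which is tied to splicing, fell by 0.54, from 5.24 ± 0.10 to 4.70 ± 0.11 (adjusted p = 0.0037), but by 0.44 with median-ratio scaling and by 0.42 with quantile normalization, below the threshold. Whether reads of DNAJC9 and its antisense partner were told apart by strand is not given in the sources used here.

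In the ER, DNAJC1 and DNAJC10 went opposite ways. DNAJC1 (ERdj1), which sits in the ER membrane at translating ribosomes, read 5.78, 5.75 and 5.82 with DMSO and 6.44, 6.45 and 6.41 with MS023, a rise of 0.65 (SE 0.058, adjusted p = 4.5e-04). DNAJC10 (ERdj5), a reductase of disulfide bonds, read 5.21, 5.07 and 5.17 with DMSO and 4.84, 4.24 and 4.64 with MS023, a fall of 0.57 (SE 0.16, adjusted p = 0.025) that was 0.47 with median-ratio scaling and 0.45 with quantile normalization, below the threshold, and had an adjusted p of 0.063 without a filter on low values. Its MS023 samples were spread widely, and the call was lost in 4 of 6 fits that left out 1 sample: the adjusted p was 0.074 without DMSO replicate 1, 0.066 without DMSO replicate 3 and 0.051 without MS023 replicate 3, and the fold change was −0.41 without MS023 replicate 2. DNAJC18, also of the ER membrane, gave −0.53 with an adjusted p of 0.066.

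Grouped by the site of the protein, a grouping made with these results known, the members had different medians. The 8 ER members had a median log2 fold change of 0.13, with 1 called higher and 1 lower. The 8 mitochondrial members were all below 0, with a median of −0.37 and 2 called lower, and the 7 of ribosome, nucleus and RNA were also all below 0, with a median of −0.49 and 4 called lower. The 18 cytosolic members had a median of −0.26, with 2 called higher and 3 lower. Over all genes tested the median was −0.11, 59.1% were below 0, 19.3% were called lower and 11.6% higher. The shares called lower were 12.5% for the ER, 25% for mitochondria, 57.1% for ribosome, nucleus and RNA and 16.7% for the cytosol. Those called higher were 12.5% for the ER, 11.1% for the cytosol and 0% for the others named here. No test of one site against another was made.

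**Figure D4:**
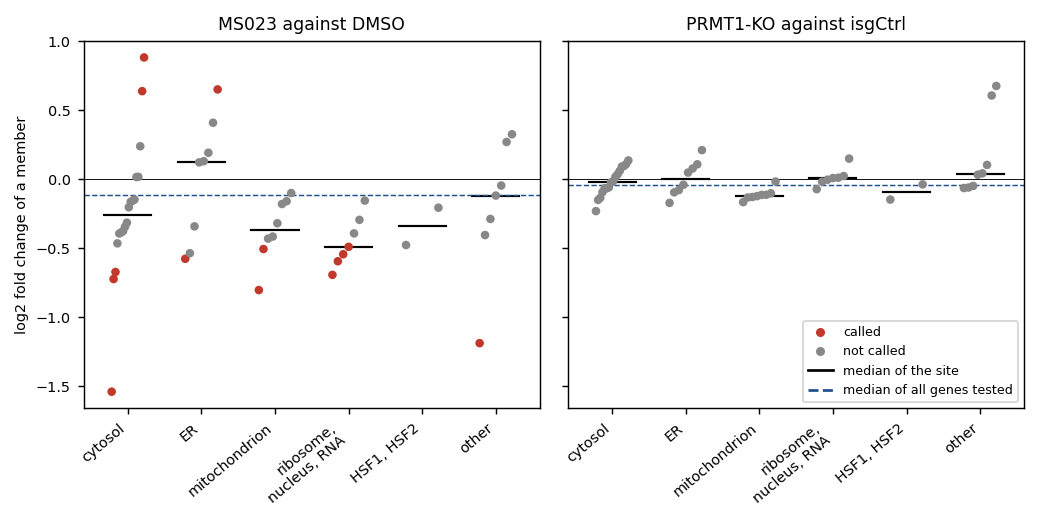
Log2 fold change (vertical axis) of each tested member, placed by the site of its protein, for MS023 against DMSO on the left and PRMT1-KO against isgCtrl on the right. Red points are called, black bars are medians of a site (0.13 for the ER and −0.49 for ribosome, nucleus and RNA on the left), and the dashed line is the median of all genes tested.

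The 2 heat shock factors were not called. HSF1 read 6.54, 6.54 and 6.63 with DMSO and 6.34, 6.41 and 6.33 with MS023 (log2 fold change −0.20, adjusted p = 0.039). HSF2 read 3.64, 3.12 and 3.46 with DMSO and 2.99, 2.95 and 2.86 with MS023. Its log2 fold change of −0.48 (adjusted p = 0.032) ended just inside the fold threshold and was −0.62 without DMSO replicate 2, which was its lowest DMSO sample.

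Members with a heat shock element in the promoter window were set beside the others. Of 8 tested members with a 2-unit motif, 0 were called lower and 1 was called higher, the HSPB1 gene shown above, and their median log2 fold change was −0.25 (−0.37 to 0.88). Of 37 tested members without it, 10 were called lower and 1 higher, with a median of −0.38 (−1.54 to 0.64). Over all genes tested 19.3% were called lower and 11.6% higher. With only 8 members in the first set these counts cannot tell the 2 sets apart, and no test between them was made. The stretches printed for HSPA8, DNAJB6 and HSPA1B thus belong to genes at −0.15, −0.31 and −0.37, none called. HSPH1, HSPE1 and HSP90AA1 had no match in these 300 bases, which says only that these letters are not in this window. Only 1 window per gene was searched, so that other starts of a gene were not covered. The windows of HSP90AA1 and HSPB11 lay wholly outside the spans annotated for these genes, and HSPB11 is among the 10 called lower without a match.

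Summed over the 71 parent genes, chaperone RNA was 7194 to 7382 TPM with DMSO, 5997 to 6193 with MS023, 7163 to 7391 for isgCtrl and 6955 to 7211 for PRMT1-KO. Each MS023 sample was lower than each of the other 9. The small heat shock family alone was higher with MS023, at 150 to 161 TPM against 126 to 140 with DMSO. The rise came from HSPB1 (63.2 to 72.0 TPM with DMSO and 123 to 131 with MS023), while HSPB11 went the other way (61.4 to 67.2 and 26.3 to 30.0 TPM). The sum over ER members was also higher, at 168 to 180 against 145 to 153 TPM, and DNAJC1 carried it, since without DNAJC1 the sum was 92.6 to 97.2 TPM with DMSO and 81.0 to 93.9 with MS023. The sum over mitochondrial members was lower with MS023, at 1694 to 1795 against 2287 to 2436 TPM. TPM are shares of 1000000 in each sample, so that a lower share and less RNA per cell cannot be told apart.

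**Figure D5:**
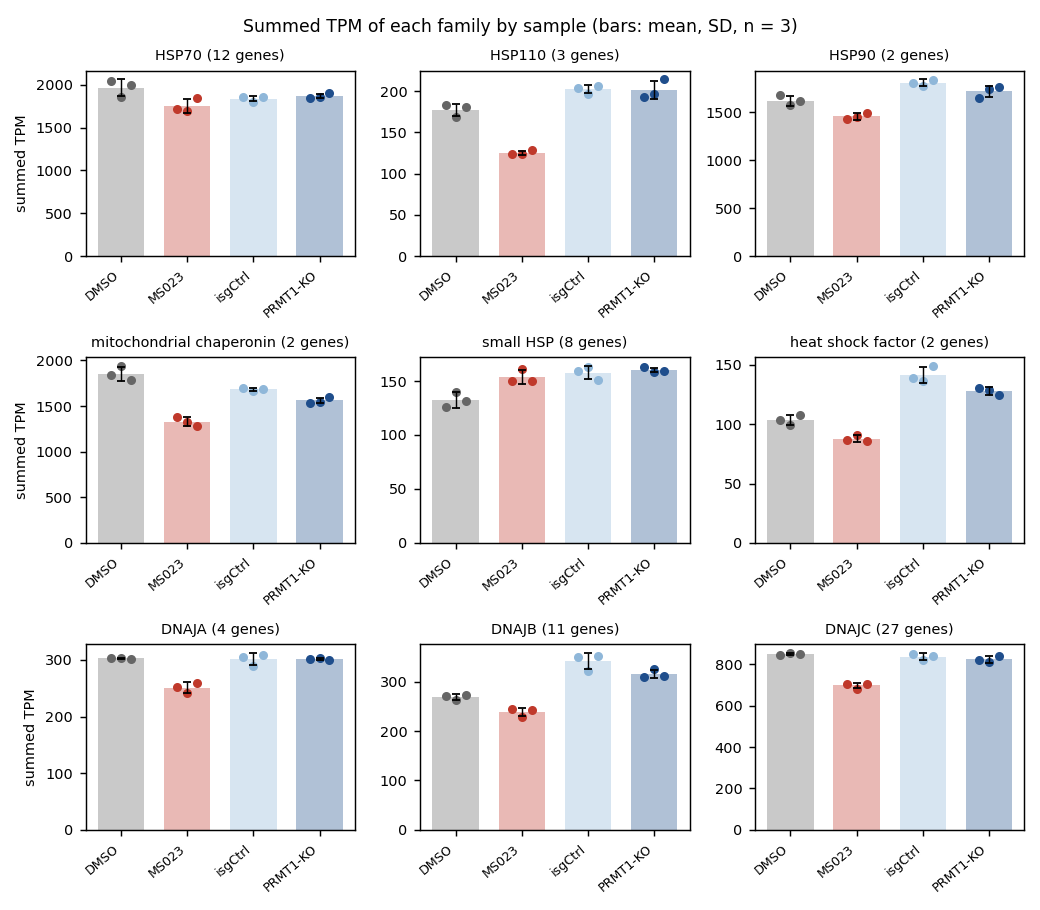
Summed TPM (vertical axis, from 0) of the genes of each family, with a point for each of the 3 samples of a group and bars for mean and SD. With MS023 the sums of all families but HSP70 and the small heat shock proteins lie below those of all other samples. The small heat shock sum lies above that of DMSO.

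Partners of the members were read from lists that were put together with earlier results known. Among 23 HSP90 cochaperones 6 fell with MS023 (26.1%, beside 19.3% of all genes called lower) and 0 rose (beside 11.6% called higher), with a median log2 fold change of −0.15 beside −0.11 for all genes. They were FKBP5 (−0.80), a receptor cochaperone, RPAP3 (−0.71), which assembles protein complexes with HSP90, CHORDC1 (−0.68), NUDCD2 (−0.65), SUGT1 (−0.63) and CACYBP (−0.62). AHSA1 and STIP1, which drive the HSP90 cycle and link HSP90 to HSP70, gave −0.07 each and were not called.

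Other folding machines gave few calls. Of 15 genes of the cytosolic chaperonin TRiC and of prefoldin 2 fell (13.3%, beside the same 19.3%), TCP1 (−0.56) and PFDN2 (−0.50). Of the 15, 14 were below 0, beside 59.1% of all genes, and their median was −0.36 beside −0.11. Without a fold threshold 11 of 15 had an adjusted p under 0.05, all lower, beside 48.8% of all genes in either direction. Of 14 HSP70 exchange factors and partners DNLZ, a partner of mitochondrial HSP70, rose by 0.80 and BAG2 fell by 0.82 (7.14% each, beside 11.6% and 19.3%). Of 9 mitochondrial proteases and unfoldases AFG3L2 fell by 0.97 and CLPB by 0.93 (22.2%, beside 19.3%). Of HSP90B1 (0.38) and TRAP1 (−0.00), the HSP90 forms of ER and mitochondria, neither was called.

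The remaining lists around HSF1 were mixed. Of 11 other known targets of HSF1 3 fell (27.3%, beside 19.3% of all genes) and 0 rose, with a median of −0.07. They were CHORDC1 and CACYBP, already counted above, and MRPL18 (−0.60), while BAG3 (0.34) and SERPINH1 (0.33) were not called. CRYAB, a small heat shock protein outside the symbol rule, had the value farthest from 0 in this list, −1.40 with an SE of 0.63, and was not called (adjusted p = 0.12). HSF4 (−0.02) and HSBP1 (0.22) were tested and not called.

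PRMT1-KO cells were then compared with isgCtrl cells. No member was called: 0 of 49 tested (0.00%), beside 0.781% of 12285 genes (0.415% higher and 0.366% lower). At an unadjusted p under 0.05 there were 7 members (14.3%; 2 higher and 5 lower), beside 18.6% of all genes, and no member had an adjusted p under 0.05 at any fold. The groups did not overlap for 14 members (28.6%), beside 26.7% of all genes. The median log2 fold change was −0.02 for the members and −0.04 for all genes.

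The intervals bound most changes tightly. For 44 of 49 members the 95% interval lay within 0.48 of 0, and the other 5, named for this reason, were DNAJC12, DNAJC5B, DNAJC16, DNAJC18 and DNAJB14. DNAJC12, a cochaperone of aromatic amino acid hydroxylases, read 0.41, 0.54 and 0.50 in isgCtrl and 1.34, 1.27 and 0.87 in PRMT1-KO cells. It had the largest value at 0.68 (95% interval 0.35 to 1.00, adjusted p = 0.091) and a level of about 1 TPM, and its groups did not overlap. DNAJC12 was tested only through its PRMT1-KO mean of 1.16, since its isgCtrl mean was 0.48. Its rank and the lack of overlap are thus partly set by the filter and are no support for a rise.

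Members with the largest responses to MS023 were close to their control in PRMT1-KO cells. HSPA4L gave 0.10 (95% interval −0.17 to 0.37), HSPB11 0.11 (−0.09 to 0.30) and HSPB1 −0.02 (−0.19 to 0.14). DNAJC1 was higher in all 3 PRMT1-KO samples (5.45, 5.45 and 5.52) than in isgCtrl (5.30, 5.27 and 5.22), with a log2 fold change of 0.21 (adjusted p = 0.12). DNAJB4 was lower in all 3 (2.87, 2.79 and 2.83 against 3.16, 3.13 and 2.89), with −0.23 (adjusted p = 0.24). Of the 14 members called with MS023 all were tested here, 8 had the same sign, and all had an interval within 0.48 of 0. Over all genes tested 59.1% were below 0 with MS023 and 60.5% in PRMT1-KO cells. The share of all genes with the same sign in both was not counted, so that the 8 of 14 has no background beside it.

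For the chaperonin and HSF1 the log2 fold changes in PRMT1-KO cells were below 0. HSPE1 read 10.13, 10.12 and 10.12 in isgCtrl and 10.00, 10.00 and 10.05 in PRMT1-KO cells (−0.11, adjusted p = 0.27), and HSPD1 gave −0.10 (adjusted p = 0.33). HSF1 read 7.04, 7.03 and 7.14 against 6.97, 6.92 and 6.89 (−0.15, adjusted p = 0.24). None of these passed the test here, though HSPE1 had an adjusted p under 0.05 in 1 of 14 alternative fits, within the fold threshold. HSP90AA1, HSP90AB1 and HSPA8 gave −0.09, −0.06 and 0.06.

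None of these lists of partners gave a call in PRMT1-KO cells. HSP90 cochaperones had a median of −0.02 over 23 genes, TRiC and prefoldin −0.02 over 15, HSP70 exchange factors −0.05 over 14, mitochondrial proteases and unfoldases −0.12 over 9, HSP90B1 and TRAP1 −0.07, HSF4 and HSBP1 −0.15 and other HSF1 targets −0.02 over 11. The values of the HSF1 targets ran from −0.74 for CRYAB (adjusted p = 0.55) to 0.60 for SERPINH1 (adjusted p = 0.19).

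The 2 effects were compared directly in 1 fit of all 12 samples, as the MS023 effect minus the PRMT1-KO effect. Of 51 members 11 differed (21.6%), beside 24.4% of 13256 genes, with 2 higher (3.92%, beside 9.69%) and 9 lower (17.6%, beside 14.7%). The split of 2 and 9 was 3 and 6 with median-ratio scaling and 3 and 7 with quantile normalization. The 2 largest differences were in HSPA4L (−1.64, SE 0.15, adjusted p = 2.7e-05) and HSPB11 (−1.29, SE 0.11, adjusted p = 1.9e-05). HSPH1 (−0.69), DNAJC19 (−0.68), DNAJC21 (−0.62), DNAJC9 (−0.60), DNAJC17 (−0.54), HSPA14 (−0.50) and DNAJB4 (−0.49) followed. HSPB1 (0.91, SE 0.095, adjusted p = 6.8e-05) and DNAJB2 (0.50) were higher.

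Some of these differences lie near the threshold. DNAJB4 lost its call in 7 of 12 fits that left out 1 sample, with adjusted p of 0.050 to 0.070. It kept the call without DMSO replicates 1 and 2, MS023 replicate 2 and isgCtrl replicates 1 and 2. DNAJB2 came to 0.44 without DMSO replicate 1 and without PRMT1-KO replicate 1, and DNAJC17 to −0.43 without isgCtrl replicate 3. HSPA14 came to −0.47, −0.44 and −0.46 without MS023 replicate 1, isgCtrl replicate 2 and PRMT1-KO replicate 3. DNAJC1 (0.44, adjusted p = 6.3e-04) stayed within the fold threshold, and so did HSP90AA1 (−0.37), HSPE1 (−0.39) and HSPD1 (−0.31), whose adjusted p were 0.0041, 0.0051 and 0.0054. Scaling moved calls both ways. DNAJC1 passed at 0.52 with median-ratio scaling and HSPE1 at −0.55 with quantile normalization, whereas DNAJC17 (−0.46 with either), HSPA14 (−0.42 and −0.44) and DNAJB4 (adjusted p = 0.081 and 0.13) lost the call under both. For HSF1 the difference was −0.06 (95% interval −0.23 to 0.11) and for HSPA9 it was −0.05 (−0.31 to 0.22).

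The 2 control groups were compared last, since the effects above rest on different controls. They differ in Cas9, vector, selection, doxycycline and solvent at once, and these cannot be told apart. Of 49 members tested 6 were called (12.2%), beside 13.9% of 12661 genes, with 4 higher in isgCtrl (8.16%, beside 7.23%) and 2 lower (4.08%, beside 6.70%). The split of 4 and 2 was 2 and 2 with median-ratio scaling and 2 and 3 with quantile normalization. The groups did not overlap for 27 members (55.1%), beside 51.7% of all genes, and the median log2 fold change was −0.04 for the members and 0.07 for all genes.

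The genes higher in isgCtrl included the aggregation suppressor DNAJB6, the small heat shock protein HSPB1 and the factor HSF1. DNAJB6 read 7.12, 6.98 and 7.04 with DMSO and 7.79, 7.64 and 7.75 in isgCtrl, a rise of 0.67 (SE 0.067, adjusted p = 0.0018). HSPB1 read 6.73, 6.72 and 6.61 in isgCtrl and rose by 0.59 (SE 0.072, adjusted p = 0.0033). Neither group overlapped with DMSO, and the PRMT1-KO samples lay close to isgCtrl for both genes, at 7.55 to 7.60 and at 6.57 to 6.73.

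HSF1 read 7.04, 7.03 and 7.14 in isgCtrl, above all DMSO samples, and rose by 0.50 (adjusted p = 0.0029). Its rise was 0.47 without isgCtrl replicate 3, 0.45 with median-ratio scaling and 0.47 with quantile normalization, below the threshold. DNAJC18 rose by 0.49 (adjusted p = 0.046), a call lost in 5 of 6 fits that left out 1 sample and kept only without DMSO replicate 1. In those 5 its values were 0.45 and 0.37 without DMSO replicates 2 and 3 and 0.52, 0.50 and 0.44 without isgCtrl replicates 1, 2 and 3, with adjusted p from 0.092 to 0.12.

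Lower in isgCtrl were 2 ER proteins. HSPA13 read 3.35, 3.33 and 3.18 in isgCtrl beside 3.87 to 3.96 with DMSO, and fell by 0.62 (SE 0.068, adjusted p = 0.0024). DNAJC1 read 5.30, 5.27 and 5.22 beside 5.75 to 5.82 and fell by 0.52 (SE 0.053, adjusted p = 0.0019). Both groups were apart from DMSO. The comparison of MS023 with DMSO shares the DMSO samples, and there HSPA13 gave 0.41 and DNAJC1 0.65, so that the order of their levels over the 4 groups was MS023, DMSO and then the Cas9 groups.

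Neighbouring groups in that order were not equally far apart. For DNAJC1 the levels were 6.44 ± 0.02 with MS023, 5.78 ± 0.03 with DMSO, 5.47 ± 0.04 in PRMT1-KO and 5.26 ± 0.04 in isgCtrl, with no overlap between any neighbours. For HSPA13 they were 4.31 ± 0.09, 3.90 ± 0.05, 3.37 ± 0.07 and 3.29 ± 0.09, and the last 2 overlapped. For HSPB1 the order was MS023 at 6.99 ± 0.05, isgCtrl at 6.69 ± 0.07, PRMT1-KO at 6.66 ± 0.08 and DMSO at 6.10 ± 0.09, of which isgCtrl and PRMT1-KO did not differ beyond their spread.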

How the data were processed

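RNA-seq of 12 JJN3 samples in 4 groups (DMSO, MS023, isgCtrl and PRMT1-KO, n = 3 each) was used, with groups taken from the labels. Per the labels and the study's methods, the authors used FastQC, Trimmomatic, STAR on hg38 (GENCODE V35) and Salmon, and deposited gene values as log2(TPM+1). TPM of each sample sum to 1000000, so depth cannot be read from the values, no counting interval was given, and low genes are the least precise.

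The deposited log2 values were fitted as they stand with limma 3.58.1 in R 4.3.3 (eBayes without trend), over all genes with a mean above 1 in either group. Values of p were adjusted by Benjamini-Hochberg over all genes tested, and calls needed an adjusted p under 0.05 with a log2 fold change beyond 0.48 either way, which are the limits set in the study. The study nonetheless reported far fewer genes for MS023 than the 3986 called here, and the reason was not tested. For PRMT1-KO its number was close to the 96 called here. Fold changes are on the log2(TPM+1) scale, which understates changes of low genes. Exact permutation tests of 3 against 3 cannot go below a two-sided p of 0.10 and were not used. The scripts were tested on simulated data.

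Members and lists were chosen with earlier results of these data known. Genes named are the called members (up to 12 in each direction), 17 genes named whatever their values, the 8 most abundant members, the 6 largest calls in each of the other 2 comparisons, PRMT1 and called genes of the lists. The list of J-domain proteins with other names is not reported here. Positions are from GENCODE v44 on hg38, where 134 of 135 members matched by symbol and 1 by an older symbol. Promoters are from RefSeq (GRCh38.p14). Alternatives were other filters, a pseudocount of 0.1, 2 scalings, eBayes with trend, a replicate block, 1 fit of all samples, each sample left out and other fold thresholds.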

Additional observations from a re-analysis of the deposited data

Results flagged for a closer look

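For 11 members the MS023 effect differed from the PRMT1-KO effect by the test of the difference itself, in 1 limma fit of all 12 samples. The difference (MS023 effect minus PRMT1-KO effect, log2) was −1.64 for HSPA4L, −1.29 for HSPB11, −0.69 for HSPH1, −0.68 for DNAJC19, −0.62 for DNAJC21, −0.60 for DNAJC9, −0.54 for DNAJC17, −0.50 for HSPA14 and −0.49 for DNAJB4. It was 0.91 for HSPB1 and 0.50 for DNAJB2. DNAJB4, DNAJC17 and HSPA14 lost the call with median-ratio scaling and with quantile normalization. Adjusted p ranged from 1.9e-05 for HSPB11 to 0.032 for DNAJB4. With 24.4% of all 13256 genes called in the same test, 11 of 51 members (21.6%) is a share near the background.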

How the results depend on the processing

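The fold threshold moved the number of members called most. Without it there were 32 in place of 14 with MS023, 19 in place of 6 in isgCtrl against DMSO and 23 in place of 11 in the difference of the 2 effects, and with an absolute log2 fold change above 1 there were 2, 0 and 2. Over the fits that left out 1 sample the counts were 12 to 16 with MS023, 4 to 6 in isgCtrl and 9 to 12 in the difference. No alternative called a member in PRMT1-KO against isgCtrl (0 in each fit that left out a sample). Of the genes named, HSPE1 and DNAJC1 each had a limma adjusted p of 0.040 there in 1 of 14 alternatives, within the fold threshold. Other filters, a pseudocount of 0.1, both scalings, eBayes with trend and 1 fit of all samples gave 11 to 17 members with MS023, 4 to 6 in isgCtrl and, in the difference, 9 to 12. Of the members called with MS023, 10 kept the call with median-ratio scaling and 11 with quantile normalization. Over all genes, calls with MS023 were 3986, 6300 without a fold threshold and 1083 above 1. In isgCtrl they were 1763, 4373 and 369, and in the difference 3231, 4719 and 921. In PRMT1-KO they were 96, 157 and 9, and 46 without a filter on low values.

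Signs turned for values of at most 0.17 in size (DNAJC18 in PRMT1-KO, −0.17, and DNAJC10, −0.094, were the farthest from 0), and the cause was not tested. With quantile normalization HSP90AB1 came to −0.095 with MS023. In PRMT1-KO DNAJA1 came to 0.014, DNAJC17 to 0.038, HSF2 to 0.013 and HSPB1 to 0.020, in isgCtrl DNAJC19 came to −0.0092, and in the difference HSF1 came to 0.016 and HSP90AB1 to −0.070. With median-ratio scaling DNAJA1 came to 0.028, DNAJC17 to 0.037 and HSPB1 to 0.018 in PRMT1-KO, HSPD1 to −0.028 in isgCtrl, and in the difference HSF1 to 0.023 and HSPA9 to 0.035. Leaving out 1 sample gave a range of −0.0037 to 0.040 for HSP90AB1 with MS023, of −0.080 to 0.027 for DNAJA2 and −0.040 to 0.033 for DNAJC21 in isgCtrl, and of −0.13 to 0.041 for HSPA9 in the difference. In PRMT1-KO these ranges were −0.041 to 0.0058 for DNAJA1, −0.18 to 0.047 for DNAJC10, −0.11 to 0.065 for DNAJC17 and −0.38 to 0.11 for DNAJC18. They were −0.0061 to 0.031 for DNAJC9, −0.15 to 0.063 for HSF2, −0.046 to 0.053 for HSPA14, −0.061 to 0.025 for HSPB1 and −0.012 to 0.039 for HSPH1.

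Samples of different groups share replicate numbers, but deviations from the group means of samples with the same number correlated at 0.021, 0.073 and 0.10 for DMSO with MS023 and at −0.14, 0.070 and −0.070 for isgCtrl with PRMT1-KO, so that the numbers were not taken to pair the samples. For DMSO with MS023 all 3 correlations were above 0, and whether a number marks a shared day is not given in the labels. Not every sample correlated best with its own number. With a replicate block 15 members were called with MS023 (DNAJC18 was added), 0 in PRMT1-KO, 5 in isgCtrl (DNAJC18 was lost) and 10 in the difference (DNAJB4 was lost), and the 96 calls over all genes in PRMT1-KO became 0. Depth cannot be read from the deposited values, so that the precision of low members such as DNAJC12 is known from 3 samples alone.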
